A study of Oryzias melastigma with 6 samples.

Results

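miR-124, miR-128, miR-137, miR-138 and miR-153 are conserved vertebrate microRNAs (miRNAs) of neurons, and their levels and exact forms were described here in brain, liver and gonads of the marine medaka Oryzias melastigma, a small saltwater fish. Members were the deposited sequences that matched miR-124-3p, miR-128-3p, miR-137-3p, miR-138-5p, miR-138-3p or miR-153-3p over 17 nt or more, allowing up to 2 mismatches and a 5' end displaced by up to 3 nt. Of 1571 distinct sequences in the 6 deposited lists, 146 were members, and 1060 in all could be assigned to 104 miRNA family arms. An arm is the strand cut from the 5' (5p) or the 3' (3p) side of the miRNA hairpin. Small RNA came from pooled tissue of mature, breeding fish that carried no stated treatment or genetic change, and was size-selected on a gel. Brain and liver of females and males, ovary and testis gave 1 library each, named here female brain, male brain and so on. The female and the male library stand for an organ (n = 2 libraries), and ovary and testis stand for the gonads. With 1 pool per group, p-values set a difference between organs against the variation of these libraries, not of fish.

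A miRNA guides an Argonaute protein to messenger RNAs through its seed, bases 2 to 8 from its 5' end, and lowers the stability or the translation of its targets. miR-124 is among the most abundant miRNAs of mammalian neurons, where it holds down transcripts of other cell types. miR-128 limits the excitability of neurons in mice, and miR-137 acts in neuronal maturation and synapse function. miR-138 restrains the growth of dendritic spines in rat hippocampal neurons, and miR-153 acts on transcripts of presynaptic proteins.

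The most abundant listed form of each arm is shown because all other forms are described against it, with its seed in capitals. The sequences are those of the deposited lists, written 5' to 3' with T in place of U.
miR-153-3p: tTGCATAGtcacaaaagtgatc
miR-128-3p: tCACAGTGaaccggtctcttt
miR-124-3p: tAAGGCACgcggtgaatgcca
miR-137-3p: tTATTGCTtgagaatacgcgta
miR-138-5p: aGCTGGTGttgtgaatcaggcc
miR-138-3p: gCTACTTCccaacaccagggt

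No seed was shared between these 6 arms. The seed CACAGTG of miR-128-3p also occurred, displaced, within the first 11 bases of the miR-27-3p reference, but it was the seed of no other family arm found in the lists.

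The deposited values were taken as RPM, reads scaled to a common library total, and their steps implied totals of 18.7 to 25.5 M reads per library (M, mega). Each list held sequences of 20 to 23 nt above a minimum of 6.002 to 10.03 RPM, equal to 112 to 256 reads. An unlisted sequence was taken to lie under that minimum and was not shown to be absent. All limits given for unlisted arms rest on that reading. Listed sequences assigned to miRNAs held 22.96% of all reads in female brain and 20.9% in male brain, against 1.52% to 2.32% in the liver and gonad libraries. All listed sequences together held 23.97% in female brain and 21.65% in male brain, against 2.08% to 2.95% in the others. The miRNA shares and totals used here are those of listed sequences alone, and miRNA reads outside the lists are not in them. Markers fitted the organ labels: miR-9, a marker of brain, was listed in both brain libraries alone, and miR-202 of gonads in ovary and testis alone. The liver markers miR-122, miR-194 and the miR-192 family summed to 8979 RPM in female liver and 9096 RPM in male liver. Elsewhere only miR-194 of these was listed, at 117.3 RPM in ovary, 26.9 RPM in testis and 8.61 RPM in female brain. Markers of other cells moved with the organs too. The oligodendrocyte miRNAs miR-219 and miR-338 summed to 9207 RPM in female brain and 8874 RPM in male brain, against 20.8 to 102 RPM elsewhere. The red cell miRNAs miR-144 and miR-451 summed to 1805 RPM in female brain and 986.7 RPM in male brain, against 13.9 to 319 RPM. Smooth muscle miR-143 and miR-145 summed to 376.7 RPM in female brain and 386.1 RPM in male brain, against 44.1 to 1798 RPM, and miR-1, miR-133 and miR-206 of skeletal and heart muscle to 354.5 RPM in female brain and 204.8 RPM in male brain, against at most 112.9 RPM. These sums are on RPM, and the larger miRNA share of the brain libraries enters them. Divided by each library's miRNA total, miR-144-3p and miR-451-5p differed between brain and liver by -1.83 and -1.17 in log2. Over gonads the differences were 1.04 and 0.86. Only that of miR-144-3p over liver was called in the fits described below. The part of these cells in the results was not tested. The female brain library differed from all others in 1 kind of sequence. It listed 47 sequences with an unread base (N) at position 16, 7 of them members, while no other library listed any. The 7 members summed to 198.2 RPM, or 0.522% of the members' level in female brain, and each was at 0.702% to 0.875% of the form with that base read. The members' values are given with them, since without them the sums in female brain are lower by that share.

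All 6 arms were listed in both brain libraries, and together they summed to 37959 RPM in female brain and 31085 RPM in male brain, or 16.5% and 14.9% of the miRNA reads of these libraries. miR-153-3p was the most abundant of them, at 17411 ± 2716 RPM in brain (SD, n = 2 libraries), and was the third most abundant family arm in both brain libraries. miR-128-3p followed at 7401 ± 1184 RPM and miR-124-3p at 5321 ± 651 RPM. miR-137-3p averaged 2258 ± 300 RPM, and miR-138-5p 2040 ± 7.19 RPM. The lowest was miR-138-3p, the other arm of the miR-138 hairpin, at 91.7 ± 3.58 RPM. The order of the 6 arms was the same in both brain libraries and neighbours in it did not overlap. The narrowest step was that from miR-137-3p to miR-138-5p, where the lower miR-137-3p value, 2046.1 RPM in male brain, lay beside the higher miR-138-5p value, 2045.4 RPM in female brain. Within male brain the ratio of these 2 arms was 1.005, and their means differed by less than the SD of miR-137-3p. In bulk tissue, more cells that hold a miRNA and more of it per cell cannot be told apart.

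**Figure D1:**
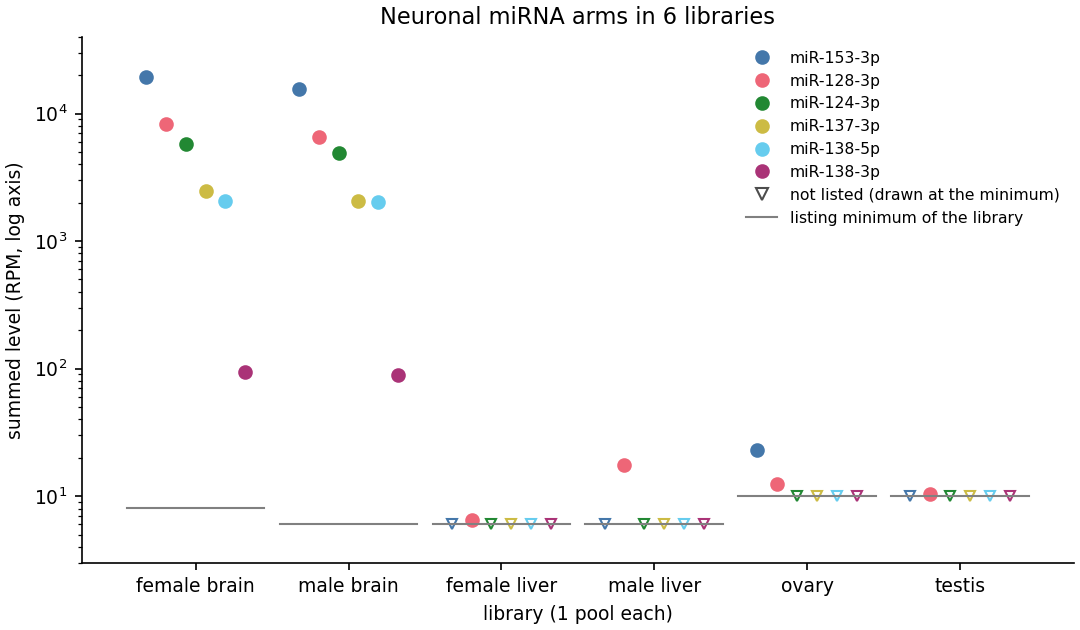
The vertical axis gives the summed level of each arm in RPM on a log scale and the horizontal axis the 6 libraries, with grey lines at each library's listing minimum and open triangles for arms that were not listed. All 6 arms lie between 89.1 and 19331 RPM in the brain libraries, and outside brain the listed points, miR-128-3p in 4 libraries and miR-153-3p in ovary, lie at or under 22.9 RPM.

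miR-153-3p had 19331 RPM in female brain and 15491 RPM in male brain, and among the other organs it was listed in ovary alone, at 22.9 RPM (525 reads). Brain and non-brain libraries did not overlap: its top form in the lower brain library was 432-fold above the same form in ovary and at least 1641-fold above the listing minimum of both liver libraries. In limma's test on log2(RPM + 1), with values under 10.03 RPM raised to that value, miR-153-3p was higher in brain than in liver by 10.62 (SE 0.16, adjusted p = 8.07e-05) and than in gonads by 10.06 (SE 0.42, adjusted p = 7.81e-05).

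miR-128-3p had 8238 RPM in female brain and 6563 RPM in male brain, against 6.46 RPM in female liver, 17.4 RPM in male liver, 12.5 RPM in ovary and 10.3 RPM in testis. It was the one member listed in all 6 libraries, and its top form in the lower brain library was 193-fold above the same form in male liver and 173-fold above it in ovary. The log2 difference was 9.01 for brain over liver (SE 0.34, adjusted p = 0.000459, limma) and 9.21 for brain over gonads (SE 0.31, adjusted p = 4.60e-05).

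miR-124-3p had 5781 RPM in female brain and 4860 RPM in male brain and was unlisted in all 4 other libraries. Its top form in the lower brain library was at least 355-fold above the liver minimum and 214-fold above the gonad minimum. The log2 difference was 8.91 in both comparisons, since both use the same brain libraries and the same minimum (SE 0.14 and 0.13, adjusted p = 8.07e-05 over liver and 5.57e-06 over gonads, limma).

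miR-137-3p had 2470 RPM in female brain and 2046 RPM in male brain, and miR-138-5p 2045 RPM in female brain and 2035 RPM in male brain. Neither was listed outside brain. Their top forms were at least 102-fold and 151-fold above the liver minimum, and at least 61.4-fold and 90.9-fold above the gonad minimum. The fitted log2 differences were 7.67 for miR-137-3p and 7.53 for miR-138-5p, with adjusted p of 1.10e-04 and 8.07e-05 over liver and of 7.11e-06 and 5.57e-06 over gonads (limma).

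miR-138-3p had 94.2 RPM in female brain and 89.1 RPM in male brain, and was unlisted elsewhere. Its level was so close to the listing minimum that the bounds were only at least 10.4-fold over liver and 6.24-fold over gonads. The log2 difference was 3.07 (adjusted p = 3.03e-04 over liver and 4.60e-05 over gonads, limma).

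All 6 members were thus called higher in brain in both comparisons, and these share the brain libraries. miR-124-3p, miR-137-3p, miR-138-5p and miR-138-3p entered the tests through brain alone and met a fixed minimum elsewhere. Their calls, and that of miR-153-3p over liver, restate that these arms were unlisted there and are no further support. That count has to be read against the background: 74% of the 96 family arms tested were higher in brain than in liver (71 higher, 7 lower), and 66% of 100 were higher than in gonads (66 higher, 7 lower), at an adjusted p under 0.05 in limma. The members' median log2 difference was 8.29 in both, against 2.68 over all arms tested for liver and 2.65 for gonads. With arms unlisted in both libraries of the other organ placed at their lower bound, the members' median was 7.86 over liver (5 arms at the bound) and 7.12 over gonads (4 arms). Sums in brain hold minor forms that can lie under the minimum elsewhere, and the top form alone gave smaller differences: 9.96 over liver and 9.40 over gonads for miR-153-3p, 7.77 and 7.68 for miR-128-3p, and 7.75, 5.85, 6.40 and 2.57 in both for miR-124-3p, miR-137-3p, miR-138-5p and miR-138-3p (largest adjusted p = 2.67e-04, limma). An arm unlisted in liver or gonads has no spread in that organ. The fit pools the spread over organs and draws it toward that of all arms. Values fixed at the minimum thus lower the SE and the p-value. With all 6 libraries in the fit, the same 8.91 of miR-124-3p over liver had an adjusted p of 4.64e-06 (limma). The smaller p-values over gonads therefore do not show a clearer difference. In the main fits miR-153-3p met the minimum in testis, and miR-128-3p was raised to it in female liver.

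The larger miRNA share of the brain libraries enters every difference on RPM. When values were divided by each library's miRNA total, the median difference over all arms was 0.23 over liver and 0.00 over gonads. The share of arms called higher in brain was then 37.8% of 82 over liver (31 higher, 23 lower) and 29.1% of 79 over gonads (23 higher, 20 lower). miR-153-3p was still higher by 7.87 over liver and 6.59 over gonads on that scale, miR-128-3p by 5.89 and 5.62, miR-124-3p by 6.16 and 5.17, miR-137-3p by 4.93 and 3.93, and miR-138-5p by 4.79 and 3.79 (largest adjusted p of these = 0.00414, limma). miR-138-3p did not pass over liver (0.34, adjusted p = 0.0528) and lay under the scaled minimum in the gonad fit. The minimum to which lower values were raised was 39.2 in the liver fit and 56.8 in the gonad fit on that scale. This raised minimum also enters the smaller differences of other arms unlisted outside brain. For miR-124-3p, miR-137-3p and miR-138-5p, and for miR-153-3p over liver, the difference sets the brain level against that minimum. Over gonads this also held in part for miR-153-3p, unlisted in testis, and for miR-128-3p, whose ovary value was raised to that minimum. The calls of all these arms on this scale are therefore no further support. With median-of-ratios scaling 49.4% of 83 arms were called higher in brain than in liver (41 higher, 11 lower) and 32.1% of 84 higher than in gonads (27 higher, 14 lower), and the 5 more abundant members were called in both. miR-138-3p passed over liver (0.98, adjusted p = 0.0226) but not over gonads (0.18, adjusted p = 0.490). The minimum was then 18.3 over liver and 22.7 over gonads, and the same limit holds for the calls of unlisted members. As miR-138-3p was unlisted outside brain, its small differences on both scales were set by the raised minimum and do not show similar levels.

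**Figure D2:**
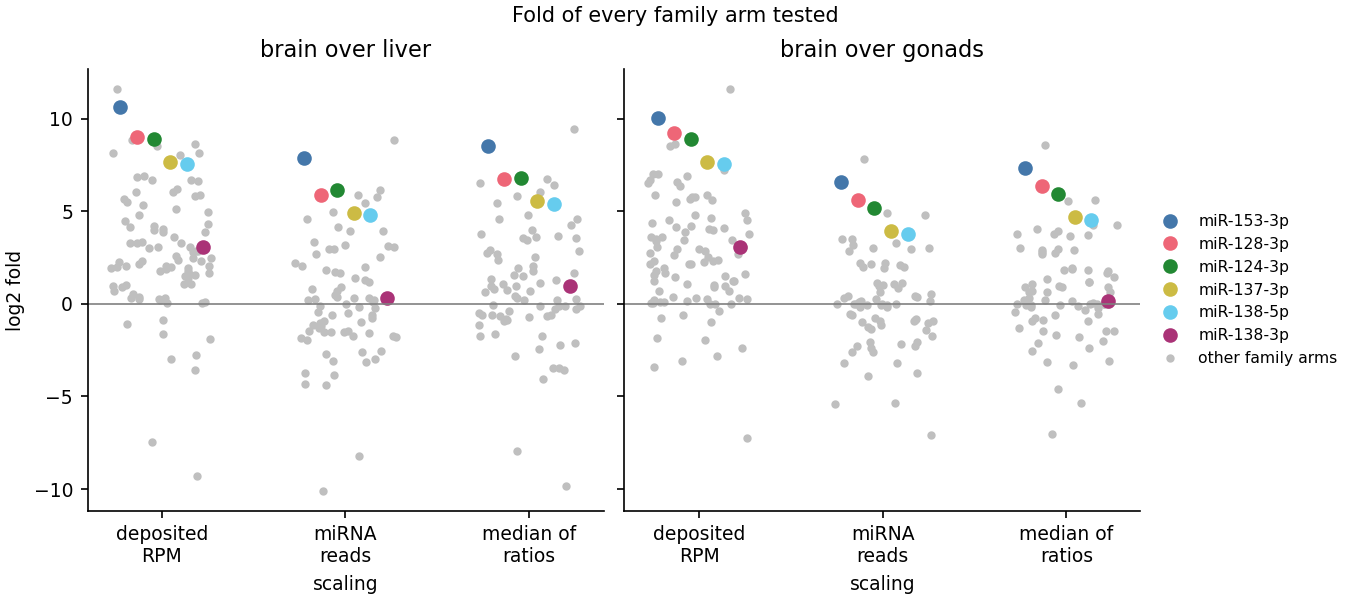
The vertical axis gives the log2 difference of every family arm tested, brain over liver on the left and brain over gonads on the right, for the deposited RPM, values scaled to miRNA reads and median-of-ratios scaling; grey points are other family arms. The median of all arms is 2.68 and 2.65 on deposited RPM and 0.23 and 0.00 on miRNA reads, where miR-153-3p lies at 7.87 and 6.59, and miR-138-3p comes close to 0 where it could be tested. The position of miR-138-3p, unlisted outside brain, is set there by the raised minimum.

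Other miRNAs known from neurons and glia followed the same direction. Of 19 such arms on a list that holds miR-9, miR-7, miR-132, miR-129, miR-218 and others, 17 could be tested. The list includes miR-124-5p, miR-128-5p, miR-137-5p and miR-153-5p from the members' own hairpins, and it was chosen with earlier results known. Most of the 17 were listed in brain alone: both arms of miR-9, miR-132 and miR-129, and miR-212-3p, miR-218-5p, miR-219-5p, miR-34-5p, miR-124-5p and miR-137-5p. These entered the tests through brain, as above, and could not come out lower there. Their calls, and so most of the counts below, restate that they were unlisted elsewhere and are no further support. Of the 17 tested arms, 16 were higher in brain than in liver and 16 higher than in gonads, with none lower, beside the 74% and 66% above. Their median log2 differences were 6.69 and 5.74. On miRNA reads 15 of 15 were higher than in liver (median 3.95), beside 37.8% of all arms. Over gonads 12 of 15 were higher on that scale (median 2.16), beside 29.1%. The most abundant was miR-9-3p, with 32512 RPM in female brain and 35282 RPM in male brain, and the lowest by mean brain level was miR-124-5p, listed at 10.8 RPM in female brain alone. Over the 6 libraries, miR-9-5p and miR-132-3p were the non-member arms most alike to miR-124-3p and to miR-128-3p, by Euclidean distance in log2(RPM + 1) with values raised to the minimum. The distances were 0.46 and 0.53 for miR-124-3p and 1.35 and 1.44 for miR-128-3p. The third were miR-129-3p for miR-124-3p (2.82) and miR-9-3p for miR-128-3p (3.23). The nearest to miR-153-3p was miR-9-3p at 1.80, ahead of miR-9-5p (3.04) and miR-132-3p (3.15). The nearest to miR-137-3p were miR-129-3p (1.09), miR-132-3p (1.23) and miR-9-5p (1.35), and those to miR-138-5p were miR-129-3p (0.96), miR-129-5p (1.19) and miR-132-3p (1.43). miR-138-3p lay closest to miR-181-3p (0.10), then to miR-222-5p and miR-187-3p (both 0.45), arms that were likewise low in brain and unlisted elsewhere.

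The opposite arm of each hairpin was far lower. miR-138 had the most balanced pair, with miR-138-5p 21.7-fold above miR-138-3p in female brain (95% exact interval 20.8 to 22.7) and 22.8-fold in male brain (21.8 to 23.9). These intervals cover counting error only. Sums leave out forms under the listing minimum, and top form against top form the ratio was 14.3 in female brain and 14.6 in male brain. miR-137-5p was listed at 12.5 RPM in female brain and 13.2 RPM in male brain, in 1 form, and the top form of miR-137-3p was 52.4-fold above it in female brain and 46.5-fold in male brain. miR-153-5p was listed at 8.34 RPM in female brain and 7.46 RPM in male brain, in 1 form, with the top form of miR-153-3p 1453-fold above it in female brain and 1327-fold in male brain. miR-128-5p was listed in no library.

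Each arm was made up of several exact forms. The 146 sequences comprised 36 forms of miR-153-3p, 30 of miR-128-3p, 37 of miR-124-3p, 25 of miR-137-3p, 15 of miR-138-5p and 3 of miR-138-3p, and 124 of them were listed in both brain libraries. Forms at 1% or more of their arm in a brain library numbered 52: the 6 top forms, 30 that differed from them at the 3' end alone, 10 with another 5' start and 6 with a substitution inside the sequence. Each arm had the same top form in female and male brain. The top form held 62.7% of miR-153-3p in female brain and 63.9% in male brain, 70.3% and 70.2% of miR-138-3p, 46.4% and 44.8% of miR-138-5p, 45.6% and 44.1% of miR-124-3p, and 36.0% and 33.1% of miR-128-3p. miR-137-3p was the most divided under this match, with 26.5% in female brain and 30.1% in male brain. That rank depends on the match. With no mismatch or shift allowed, the top form held 39.6% of miR-137-3p in female brain and 43.7% in male brain. miR-128-3p was then the most divided, at 38.3% and 34.8%, and the share in miR-153-3p rose to 91.8% and 93.0%. Shares in sentences on forms are ratios of listed values, and forms under the listing minimum are not in them.

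**Figure D3:**
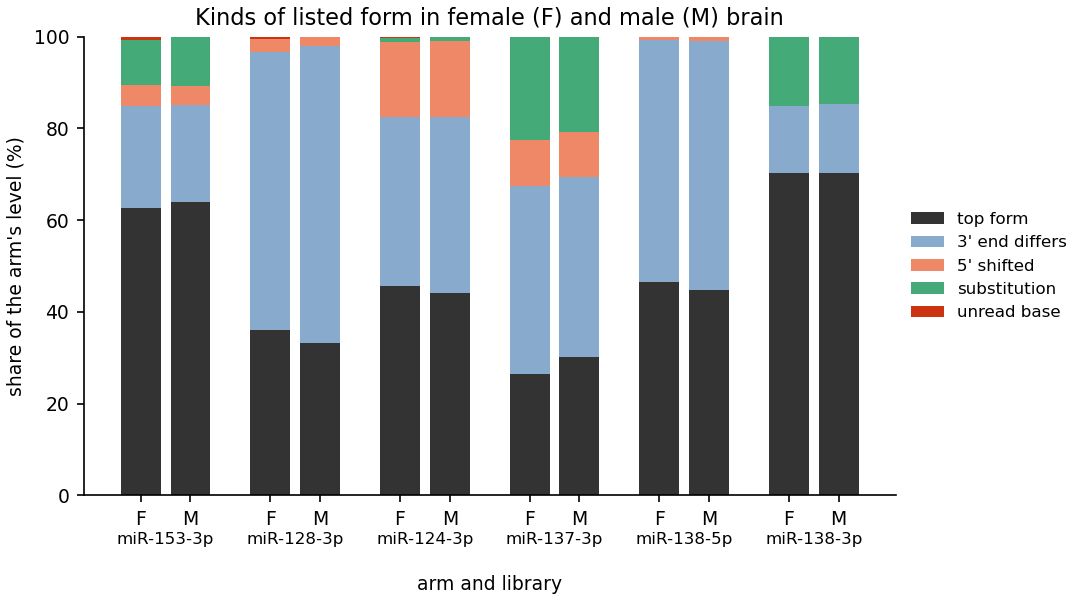
Stacked bars give the share (%) of each arm's level held by the top form and by 4 kinds of other form, in female (F) and male (M) brain; a form with a substitution and a shift is drawn as a substitution. The 2 libraries resemble each other in each arm, from a 3' end share of 60.7% and 64.8% in miR-128-3p to a 5' shifted share of 16.4% and 16.5% in miR-124-3p.

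The 5' start matters because it sets the seed. The most abundant form with another start is shown for each arm that had one, with its own bases 2 to 8 in capitals.
miR-124-3p, 1 base earlier: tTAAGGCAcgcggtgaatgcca
miR-137-3p, 1 base later: tATTGCTTgagaatacgcgtag
miR-153-3p, 1 base later: tGCATAGTcacaaaagtgatc
miR-128-3p, 1 base later: cACAGTGAaccggtctcttt
miR-138-5p, 1 base later: gCTGGTGTtgtgaatcaggcc

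miR-124-3p was the one arm with forms that began earlier than the top form. 8 of its forms began 1 base upstream, with the seed TAAGGCA in place of AAGGCAC. They held 14.1% of the arm in female brain (95% exact interval 13.9 to 14.3) and 14.6% in male brain (14.4 to 14.8), or 815.7 and 710.6 RPM. A further 2.27% in female brain and 1.87% in male brain began 1 base downstream. In miR-137-3p a start 1 base downstream, with the seed ATTGCTT, held 11.3% in female brain (11.02 to 11.54) and 9.71% in male brain (9.42 to 9.995), and a start 2 bases downstream 2.15% and 2.34%. The other arms kept to 1 start more closely. A downstream start by 1 base held 4.31% of miR-153-3p in female brain and 3.77% in male brain, 2.65% and 2.08% of miR-128-3p, and 0.740% and 1.02% of miR-138-5p. All 3 forms of miR-138-3p began at the same base. None of the seeds of shifted forms was the seed of another family arm's reference. Because of the level of its arm, the shifted miR-153-3p start reached 832 RPM in female brain and 583 RPM in male brain, beside 815.7 and 710.6 RPM of the shifted miR-124-3p start.

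Forms with substitutions inside the sequence were concentrated in 3 arms, and the most abundant of each is shown because it held a large part of its arm. These were chosen after their values had been seen.
miR-137-3p, G10A: tTATTGCTtaagaatacgcgta
miR-153-3p, G17A and T21G: tTGCATAGtcacaaaaatgagc
miR-138-3p, C5T and C9A: gCTATTTCacaacaccagggta

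Positions are counted from 1 at the 5' end of the top form, with the top form's base first. In miR-137-3p, 10 forms carried G10A and summed to 22.01% of the arm in female brain and 20.3% in male brain, and their own top form had 226.3 RPM in female brain and 207.5 RPM in male brain. An 11th form with G10A and A16G had 12.0 RPM in female brain and 11.2 RPM in male brain. In miR-153-3p, 8 forms carried G17A, 1 of them with an unread base and in female brain alone, and summed to 9.55% in female brain and 10.3% in male brain, with 1496 RPM in female brain and 1363 RPM in male brain in the form shown, which also has T21G. Each of the other 8 inner substitutions of miR-153-3p held at most 0.0909% of the arm. In miR-138-3p 1 form carried both C5T and C9A, at 14.2 RPM in female brain and 13.0 RPM in male brain, or 15.04% and 14.6% of its arm. C5T lies inside the seed, which reads CTATTTC there in place of CTACTTC. miR-124-3p had T13G in 2 forms, 0.764% of the arm in female brain and 0.922% in male brain, and miR-128-3p and miR-138-5p had no listed form with a substitution outside their last 4 bases. No miRNA table or genome was used, so a substitution is named against the top form and not against the conserved sequence. Whether these forms came from a second gene copy, allelic differences or errors of reading was not tested.

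The 3' end varied most in miR-128-3p, where forms that differed there alone held 60.7% in female brain and 64.8% in male brain. 8 of these passed 1% of the arm, and they are shorter by 1 base or longer by up to 2 bases than the top form. The leading 2 of them add G or T to it: the G form had 1380 RPM in female brain and 1297 RPM in male brain, and the T form 1357 RPM in female brain and 910.3 RPM in male brain. In miR-138-5p such forms held 52.8% in female brain and 54.2% in male brain, led by one that lacks the last base, at 585.2 RPM in female brain and 646.6 RPM in male brain. In miR-137-3p they held 41.0% and 39.3%, and in miR-124-3p 37.0% and 38.5%, led by one that lacks the last base, at 886.1 RPM in female brain and 903.9 RPM in male brain. In miR-153-3p they held 22.3% and 21.3%, led by a form with C22A, at 2864 RPM in female brain and 2269 RPM in male brain. Mean length weighted by level was 21.9 nt in both brain libraries for miR-153-3p, 21.6 nt in both for miR-128-3p and 21.1 nt in female brain against 21.0 nt in male brain for miR-124-3p. Lists end at 20 and 23 nt, so that shorter and longer forms were not seen.

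Between the brain libraries, levels of the members differed little. The ratio of female to male brain was 1.25 for miR-153-3p (95% exact interval 1.24 to 1.25), 1.26 for miR-128-3p (1.25 to 1.26), 1.19 for miR-124-3p (1.180 to 1.199) and 1.21 for miR-137-3p (1.19 to 1.22). It was 1.00 for miR-138-5p (0.99 to 1.02) and 1.06 for miR-138-3p (0.99 to 1.13). These intervals compare 2 libraries and not the sexes, and no test was possible with 1 library a sex. Across the 73 family arms with at least 50 RPM in a brain library and listed in both, the median ratio was 1.18, with quartiles of 1.05 and 1.41 and a range of 0.61 to 3.66. The members' ratios all lay between 1.00 and 1.26, and 61 of the 73 arms were above 1. Divided by miRNA reads, of which female brain had 1.10 times the share of male brain, the members' ratios ran from 0.91 for miR-138-5p to 1.14 for miR-128-3p.

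Of the 124 member forms listed in both brain libraries, 120 were within 2-fold of each other and 102 were higher in female brain. Most family arms were higher there too, 61 of the 73 above, so this direction is not particular to the members. 4 forms were more than 2-fold higher in female brain. They were 2 forms of miR-137-3p with G10A that end in AG, at 46.4 RPM in female brain against 20.8 RPM in male brain and at 26.9 RPM in female brain against 9.09 RPM in male brain, and 2 forms of miR-153-3p, the higher of which had 155.3 RPM in female brain and 71.6 RPM in male brain. Among forms of at least 1% of their arm the ratio ranged from 0.95 to 1.55 in miR-124-3p, from 0.95 to 1.60 in miR-128-3p, from 1.02 to 2.96 in miR-137-3p, from 0.86 to 1.27 in miR-138-5p, from 1.02 to 1.09 in miR-138-3p and from 1.10 to 1.51 in miR-153-3p. In miR-128-3p the form that adds T had a ratio of 1.49 (1.46 to 1.52) and the form that adds G one of 1.06 (1.05 to 1.08). In miR-138-5p the form that lacks the last base was lower in female brain, with a ratio of 0.905 (0.883 to 0.927), while the top form had 1.04 (1.02 to 1.06). 11 forms were listed in female brain alone, 7 of them the forms with an unread base, and 11 in male brain alone. None of these exceeded 8.61 RPM apart from the forms with an unread base. The listing minimum was 8.03 RPM in female brain and 6.03 RPM in male brain. The forms in male brain alone reached at most 8.00 RPM, so that at the same level they would be unlisted in female brain.

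**Figure D4:**
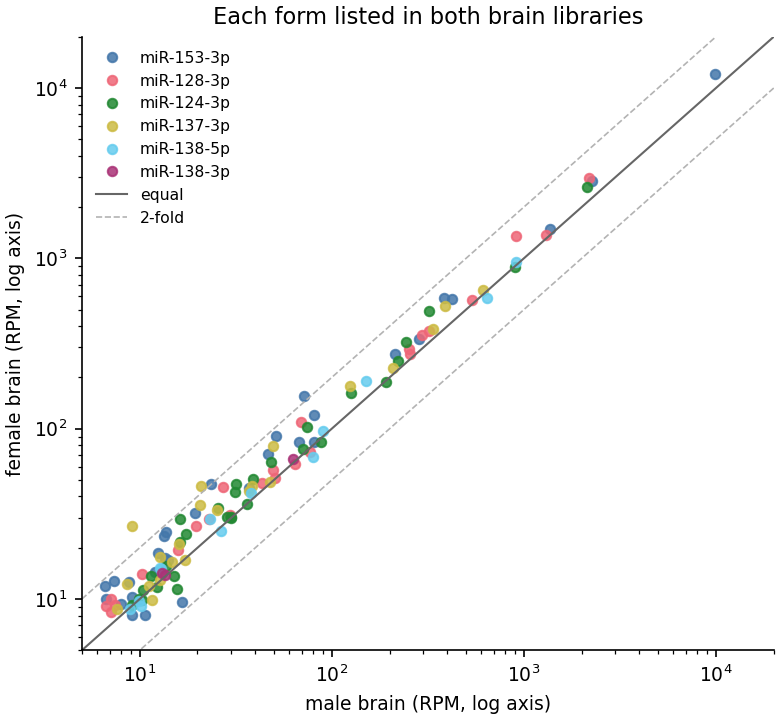
Each point is 1 of the 124 forms listed in both brain libraries, with its level in female brain on the vertical and in male brain on the horizontal axis (RPM, log axes); the solid line marks equal levels and the dashed lines a 2-fold difference. 120 points lie between the dashed lines, and the 4 above the upper one are forms of miR-137-3p and miR-153-3p.

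Outside brain only 2 arms left a trace above the minimum, in 6 entries. The top form of miR-128-3p was listed in all 4 libraries, at 6.46 RPM in female liver (122 reads), 11.3 RPM in male liver (210 reads), 12.5 RPM in ovary (287 reads) and 10.3 RPM in testis (264 reads). Male liver also listed its 23 nt form tCACAGTGaaccggtctctttag at 6.16 RPM, or 1.92% of its level in male brain, the fifth most abundant form of that arm in brain. The top form of miR-153-3p was listed in ovary alone. All 6 entries were close to the minimum of their library, at 1.03 to 2.29 times it.

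The traces are given next as shares of the brain library of the same sex. The top form of miR-128-3p reached 0.217% of its level in female brain in female liver, 0.518% of male brain in male liver, 0.422% of female brain in ovary and 0.476% of male brain in testis. That of miR-153-3p reached 0.189% of female brain in ovary, but it was under 0.0498% of female brain in female liver, under 0.0606% of male brain in male liver and under 0.101% of male brain in testis. miR-124-3p was under 0.280% of male brain in male liver, under 0.380% of female brain in ovary and under 0.468% of male brain in testis, limits below the shares of miR-128-3p there. The 95% exact intervals of miR-128-3p were 11.1 to 14.1 RPM in ovary and 9.13 to 11.7 RPM in testis. With that counting error the order of the 2 arms in ovary and testis is not settled. In female liver the limit of miR-124-3p, 0.229% of female brain, lay above the 0.217% of miR-128-3p. miR-9-3p, whose top form was the most abundant miRNA sequence of brain, was under 0.0588% of brain in each of the 4 libraries. For miR-137-3p and miR-138-5p the limits, 0.635% to 1.63%, were above every share measured for the top form of miR-128-3p, so that a trace of that size would not have been listed. For miR-138-3p they were 9.11% to 16.02%. Of the list of neural arms, 3 to 5 were listed in each library outside brain, summing to 148.0 RPM in female liver, 299.0 RPM in male liver, 566.4 RPM in ovary and 951.5 RPM in testis. The largest part was miR-181-5p in female liver (114 RPM), male liver (221 RPM) and ovary (343 RPM), and miR-7-5p in testis (601 RPM). miR-9, miR-132, miR-129, miR-218 and miR-219-5p were unlisted in all of these libraries. The part of brain RNA or of other neural cells in these entries was not tested.

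**Figure D5:**
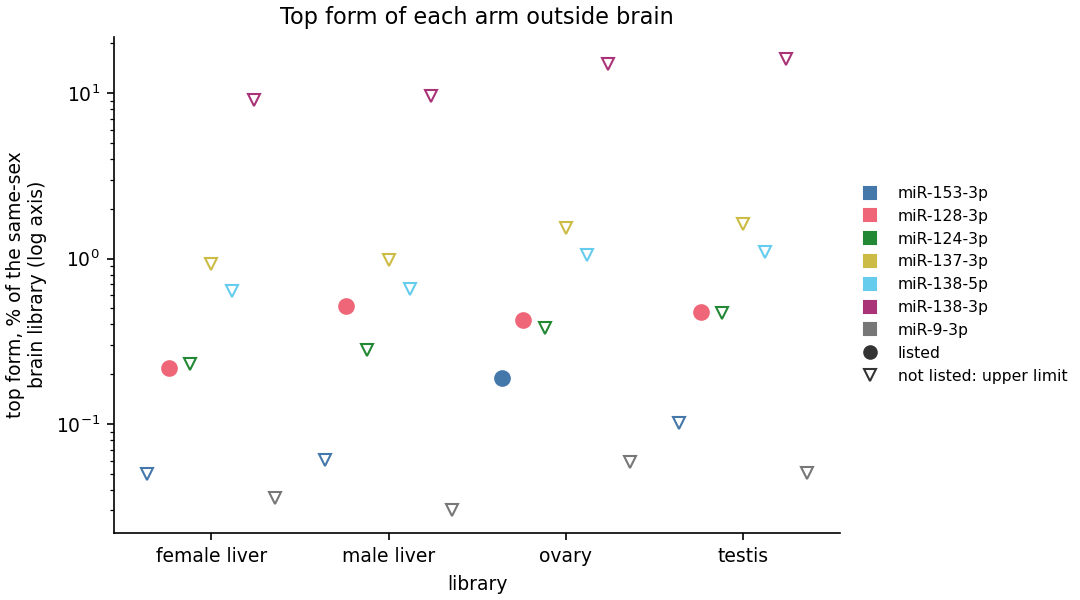
The vertical axis gives the level of each arm's top form as a percentage of the brain library of the same sex (log axis) in the 4 libraries outside brain; filled circles are listed values and open triangles upper limits set by the listing minimum. miR-128-3p is listed at 0.217% to 0.518%, miR-153-3p in ovary at 0.189%, and the limits of miR-153-3p in the other libraries and of miR-9-3p lie lower, at or under 0.101%.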

How the data were processed

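Small RNA of 6 pools, 1 per sex and organ, was sequenced. Per the labels' protocols, RNA was treated with DNase, gel-purified under 30 nt, ligated to adapters and amplified by PCR. CASAVA 1.7.0 is named in the submitters' processing notes; trimming and alignment were not given in the sources used here. The authors deposited exact sequences with a value taken here as RPM, reads scaled by the authors to each library's total. The file headers name no unit, but every value was a whole multiple, within 0.02 reads, of 1 step per library. The implied read totals served depth and intervals alone (exact binomial, 95%), which cover counting error only, as PCR reads carry no molecular identifiers.

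No miRNA table or genome was used: an arm's reference was its most abundant deposited sequence with the conserved seed at bases 2 to 8, and seed-bearing sequences unmatched to it became further references. Paralogues were summed. Members and lists were chosen with earlier results of these data known. Named were all members, their top and most abundant shifted forms, and the 3 most alike arms. Brain was compared with liver on 4 libraries and with gonads on 6, by limma 3.58.1 (R 4.3.3) on log2(RPM + 1). Tests were two-sided, and p-values were adjusted by Benjamini-Hochberg over all arms tested (threshold 0.05). Arms above 10.03 RPM, the highest listing minimum, in at least 1 fitted library were tested, and lower values were raised to it. The fits were tested on simulated data, with a spread drawn from that between the brain libraries and used for every organ. An arm fixed at the minimum in liver or gonads alone was not covered by it. Other scalings, filters, matches and left-out libraries were tried.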

Additional observations from a re-analysis of the deposited data

How the results depend on the processing

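The 5 more abundant members were called higher in brain under other scalings, a pseudocount of 10 and unlisted sequences taken as 0. The same held with a mean of at least 50 RPM, other libraries in the fit and sex as a replicate block. It also held with strict matching and the top sequence alone. For miR-124-3p, miR-137-3p and miR-138-5p, and for miR-153-3p over liver, these calls restate unlisted values and are no further support. Over gonads the calls of miR-153-3p rest in part on its unlisted value in testis. That of miR-128-3p on miRNA reads rests in part on a raised value in ovary. The share of all arms called higher ran from 29.1% (miRNA reads, over gonads) to 84.8% (50 RPM filter, over liver). Each library was also left out. The 5 members' log2 differences ranged from 3.79 to 14.08, the highest for miR-153-3p over liver with unlisted sequences taken as 0. miR-138-3p failed as given above and was left out by the 50 RPM filter. With arms called at 78 over liver and 73 over gonads, scaling to miRNA reads called 43 and median-of-ratios scaling 41 over gonads, and leaving out 1 library called 54 to 66 over liver and 59 to 74 over gonads. With sex as a replicate block 71 arms were called over liver and 71 over gonads, and all 6 members remained called in both; whether the pools of 1 sex came from the same fish is not stated in the labels. Without the female brain library 4 arms in place of 7 were lower in brain than in gonads, and with the 50 RPM filter 4 in place of 7 in both comparisons. Strict matching (no mismatch or shift) kept 43 of 146 forms and gave a miR-138 arm ratio of 23.3 in female brain and 24.1 in male brain. 4 members were higher in female brain under both rescalings, against 6 on deposited RPM. Count models named among the alternatives were not run, since the unit is not named and reads were only implied by the steps of the values. The listing minimum of 6.002 to 10.03 RPM limits every statement on liver and gonads.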
